A study of Homo sapiens with 4 samples.

Results

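The SNAI, ZEB and TWIST genes encode transcription factors that bind E-boxes, short DNA sites that are also read by MYOD. The 7 genes SNAI1, SNAI2, SNAI3, ZEB1, ZEB2, TWIST1 and TWIST2 were selected by name among the 39323 genes of the deposited expression tables, and all 7 were found. The RNA came from RD and JR1, established human lines of fusion-negative rhabdomyosarcoma (FN-RMS) that both carry mutated p53. Each line was infected with a lentiviral pLKO.1-puro vector, either with a non-targeting hairpin (shSCR, called control) or with a hairpin to SKP2 (shSKP2.2, called SKP2-depleted), and selected with puromycin, so that every cell population compared here was transduced. Each of the 4 populations gave a single poly-A library. No untransduced cells and no second SKP2 hairpin were analysed here, and the harvest time of these cells is not given in the sources used here.

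SNAI1 (Snail) and SNAI2 (Slug) are zinc finger repressors that recruit histone deacetylases and demethylases through a short N-terminal domain, and SNAI3 is their least studied paralog. ZEB1 and ZEB2 carry zinc finger clusters at both ends and recruit the CtBP corepressors. TWIST1 and TWIST2 are basic helix-loop-helix proteins that pair with the same E proteins as MYOD. In epithelia these factors silence the E-cadherin gene CDH1 during epithelial to mesenchymal transition (EMT), and in myoblasts members of the SNAI, ZEB and TWIST families are known to keep MYOD from driving muscle genes. SKP2 is the substrate-binding F-box protein of an SCF ubiquitin ligase, and these data show transcripts, not the stability of any protein.

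Levels were given as TPM, which scale reads to transcript length and to the total of a library, so that different genes can be set side by side. The scale holds no read numbers and the depth is unknown. Since each population has 1 library, values carry no replicate error and differences no p-value. A change is the log2 ratio of TPM + 1 between populations, held against a limit of 1 for the 12985 genes whose mean over the libraries reached 1 TPM, called the tested genes. Short structural RNAs held between 50.1% and 64.9% of the TPM, more in the SKP2-depleted cells of either line, and the tested genes had a median change of -0.27 (RD) and -0.21 (JR1). For this reason the change of each tested member on SKP2 depletion is also quoted centred on these medians. It is quoted once more with structural RNA genes taken out and the remainder rescaled, called the removal. SKP2, the targeted transcript, had 92.8 TPM in control RD, 7.40 TPM in SKP2-depleted RD, 46.5 TPM in control JR1 and 2.72 TPM in SKP2-depleted JR1. Of the myogenic markers, MYOD1, MYOG, DES, CHRNA1 and CDH15 had at least 31.6 TPM in every library, PAX7 between 1.16 and 10.8 TPM and MYF6 at most 0.500 TPM, and MYF5 was listed at 0. PAX7, a factor of muscle stem cells, fell by 1.43 on the log2 scale in each line. All 8 markers of epithelial, blood, endothelial, neural crest, fat and liver cells were below 1 TPM in every library, with a summed level of 0.190 to 0.310 TPM. Fewer cells that express a gene and less of its RNA per cell cannot be told apart in bulk RNA.

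SNAI2 was the most abundant of the 7 transcripts in every library. The gene lies on chromosome 8 from base 48917598 to base 48921429 (GRCh38). Its level was 29.4 TPM in control RD, 38.8 TPM in SKP2-depleted RD, 36.2 TPM in control JR1 and 60.2 TPM in SKP2-depleted JR1. The SKP2-depleted library was the higher one in both lines, and the libraries of JR1 were higher than those of RD with the same hairpin. Among all 39323 genes SNAI2 stood at place 2831 from the top in control RD and at 1589 in SKP2-depleted RD, and at 1897 in control JR1 and 794 in SKP2-depleted JR1. The log2 change on SKP2 depletion was 0.39 (RD) and 0.72 (JR1), higher than that of 93.7% and 96.3% of the tested genes. Once centred it was 0.66 and 0.93, and after the removal 0.79 and 1.01. SNAI2 was thus higher on SKP2 depletion under each scaling, and passed the limit of 1 only in JR1 after that removal.

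SNAI1, a paralog often induced early in EMT, differed in the other direction. It lies on chromosome 20 from base 49982980 to base 49988886. Its level was 9.23 TPM in control RD, 6.73 TPM in SKP2-depleted RD, 4.74 TPM in control JR1 and 2.41 TPM in SKP2-depleted JR1. Each SKP2-depleted library was below its control, and both JR1 libraries were below both RD libraries. The log2 change was -0.40 (RD) and -0.75 (JR1). In RD the value depended on the scale and was -0.13 once centred and -0.05 after the removal. In JR1 it was -0.54 and -0.62.

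SNAI3 was low in all 4 libraries and differed little between hairpins. It had 4.35 TPM in control RD, 4.12 TPM in SKP2-depleted RD, 6.68 TPM in control JR1 and 5.58 TPM in SKP2-depleted JR1. Its log2 change was -0.06 (RD) and -0.22 (JR1), and became 0.21 and -0.01 once centred and 0.30 and 0.03 after the removal, so that its direction depended on the scaling. SNAI3, on chromosome 16 from base 88677688 to base 88686507, lies wholly within the span of the antisense gene SNAI3-AS1 (88663373 to 88687186). SNAI3-AS1 had 5.31, 5.96, 7.70 and 7.80 TPM in the same order of libraries. The kit marks strand, but the strand setting of the counting is not given in the sources used here, so part of the SNAI3 value could come from reads of its antisense partner, which was not tested.

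**Figure D1:**
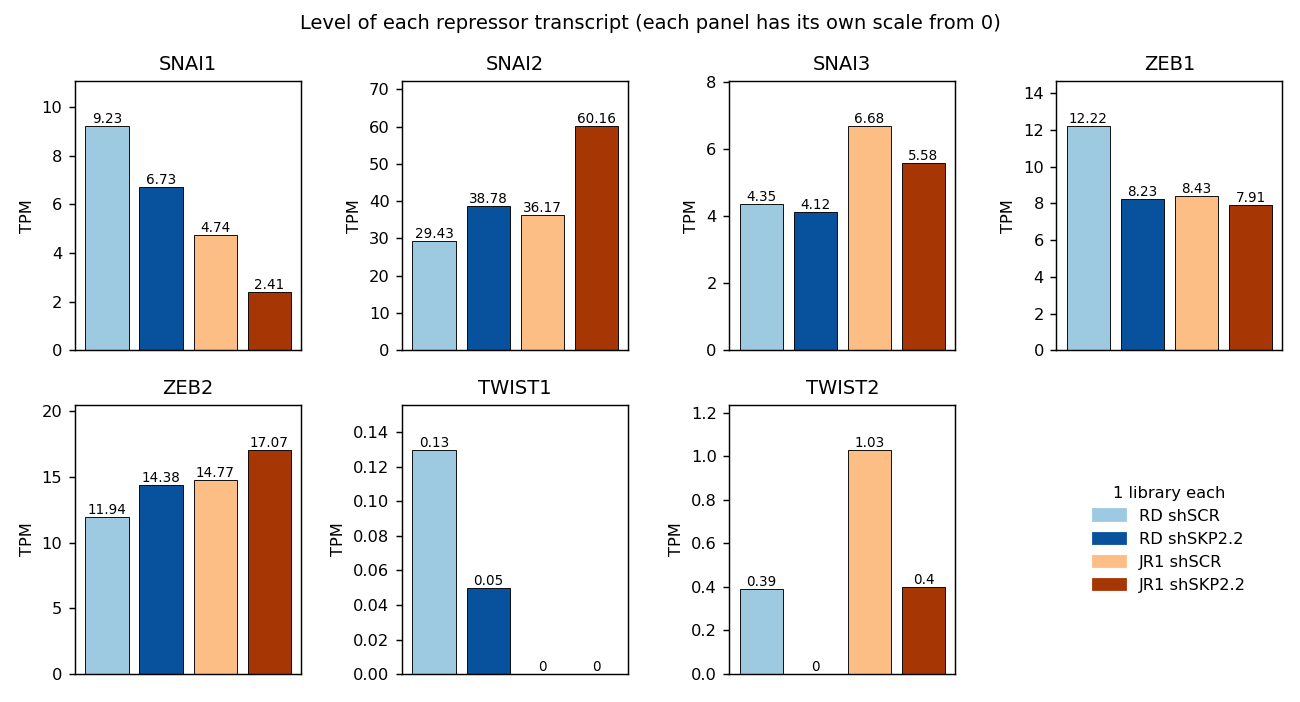
Level of each of the 7 transcripts in TPM (y axis, from 0, with a separate scale in each panel) in control RD, SKP2-depleted RD, control JR1 and SKP2-depleted JR1. Each bar is 1 library, so there are no error bars. SNAI2 is higher and SNAI1 lower on SKP2 depletion in both lines, and TWIST1 stays at or below 0.130 TPM.

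ZEB2, on chromosome 2 from base 144384081 to base 144520119, and ZEB1, on chromosome 10 from base 31318417 to base 31529804, were the next most abundant members. ZEB2 had 11.9 TPM in control RD, 14.4 TPM in SKP2-depleted RD, 14.8 TPM in control JR1 and 17.1 TPM in SKP2-depleted JR1, the SKP2-depleted library being the higher in both lines. Its log2 change was 0.25 (RD) and 0.20 (JR1), 0.52 and 0.41 once centred, and 0.65 and 0.49 after the removal. ZEB1 had 12.2 TPM in control RD, 8.23 TPM in SKP2-depleted RD, 8.43 TPM in control JR1 and 7.91 TPM in SKP2-depleted JR1. The control RD library stood above the other three. The log2 change of ZEB1 was -0.52 (RD) and -0.08 (JR1), in RD still -0.25 once centred and -0.16 after the removal, while in JR1 it became 0.13 and 0.19. The direction of ZEB1 in JR1 therefore depended on the scaling. In control RD the levels of ZEB1 and ZEB2 were close, and in the other libraries ZEB2 was the higher.

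Promoter windows from RefSeq (GRCh38.p14, from 250 bases before to 50 after a gene start) were held for 3 of the 7 members, ZEB1, ZEB2 and TWIST2. They were searched on both strands for CANNTG, the general E-box. This motif includes CAGGTG, the form bound by SNAI and ZEB proteins, which reads as CACCTG on the opposite strand. It also includes CAGCTG, a form preferred by MYOD. Of all 35116 windows of this length, 68.7% held a CANNTG, 20.6% a CAGGTG or CACCTG and 17.9% a CAGCTG. The windows at the gene starts used in the deposited tables are shown for the ZEB pair because these paralogs differed in direction in RD, with each CANNTG in capitals.
ZEB1, chr10:31318167-31318466, plus strand: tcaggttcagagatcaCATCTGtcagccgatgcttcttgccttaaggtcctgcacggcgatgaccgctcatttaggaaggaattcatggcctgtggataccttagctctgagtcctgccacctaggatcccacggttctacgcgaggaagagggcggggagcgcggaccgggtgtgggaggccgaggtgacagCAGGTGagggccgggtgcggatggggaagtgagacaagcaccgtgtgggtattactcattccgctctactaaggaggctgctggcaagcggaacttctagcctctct
ZEB2, chr2:144520070-144520369, minus strand: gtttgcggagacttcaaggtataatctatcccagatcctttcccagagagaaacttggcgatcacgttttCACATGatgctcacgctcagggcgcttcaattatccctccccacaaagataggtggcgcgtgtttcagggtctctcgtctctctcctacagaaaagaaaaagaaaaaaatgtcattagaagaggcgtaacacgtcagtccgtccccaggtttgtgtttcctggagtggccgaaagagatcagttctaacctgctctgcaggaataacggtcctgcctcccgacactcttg
The ZEB1 window held CATCTG at -234 and CAGGTG at -57 from the gene start, and the ZEB2 window held 1 box, CACATG at -180. Among the 7 ZEB1 windows, the one of the start at base 31319216 had 3 boxes of the SNAI and ZEB form, at -242, -85 and 34. Those of the starts at 31320554 and 31321660 held a CAGCTG and no box of that form. Those of the starts at 31318818, 31319768 and 31321201 held no CANNTG, and neither did the TWIST2 window. Over the members, 2 of 9 windows (22.2%) held a CAGGTG or CACCTG, near the 20.6% of all windows. A match is a description of the sequence, and binding was not measured in these data.

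ZEB1 and ZEB2 are known targets of the miR-200 microRNAs, which the ZEB proteins in turn repress through E-boxes. The RefSeq mature sequences are shown with the seed, bases 2 to 8, in capitals, and fall into 2 groups by seed.
hsa-miR-200b-3p: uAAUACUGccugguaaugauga
hsa-miR-200c-3p: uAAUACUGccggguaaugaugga
hsa-miR-200a-3p: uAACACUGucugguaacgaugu
hsa-miR-141-3p: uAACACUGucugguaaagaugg
The precursor and host genes MIR200A, MIR200B, MIR429, MIR200C, MIR141, MIR205, MIR205HG and MIR200CHG were listed at 0 TPM in all 4 libraries. Poly-A libraries of this kind do not measure mature microRNAs, so the values concern the precursor transcripts only. In the 3′ untranslated regions of the canonical GENCODE release 44 transcripts, ZEB1 (2540 bases) held 6 matches to the first seed (CAGTATT) and 3 to the second (CAGTGTT), and ZEB2 (5370 bases) held 5 and 4. Among regions of similar length (a ratio of at least 0.8), 27.1% held the first and 28.9% the second match for ZEB1, and 46.8% and 51.9% for ZEB2. Of the other members SNAI2 held 1 match to the first seed, and SNAI1, SNAI3, TWIST1 and TWIST2 held 0 of either. The first match in each ZEB transcript is shown with the match in capitals.
ZEB1, chr10:31527621-31527641, plus strand: gttttatcttatCAGTATTat
ZEB2, chr2:144389235-144389255, minus strand: aaaaattttgtaCAGTGTTaa

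The start of each ZEB gene overlaps an antisense RNA gene. ZEB1-AS1 had 1.33, 0.830, 1.35 and 1.48 TPM in control RD, SKP2-depleted RD, control JR1 and SKP2-depleted JR1, log2 changes of -0.35 and 0.08, and ZEB2-AS1 was listed at 0 in all but control JR1, where it had 0.210 TPM. Each was below its ZEB partner in every library, and whether reads of these pairs were kept apart by strand where they overlap was not tested.

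TWIST1 and TWIST2 were at or near 0, with means below 1 TPM, and were not held against the limit. TWIST1, on chromosome 7 from base 19113047 to base 19117636, had 0.130 TPM in control RD and 0.050 TPM in SKP2-depleted RD and was listed at 0 in both JR1 libraries. TWIST2, on chromosome 2 from base 238848085 to base 238910534, had 0.390 TPM in control RD, was listed at 0 in SKP2-depleted RD, and had 1.03 TPM in control JR1 and 0.400 TPM in SKP2-depleted JR1. The SKP2-depleted value was the lower in both lines, and no fold is given at such levels.

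Ratios of members within a library do not depend on the scaling. SNAI2 stood at 3.19 times SNAI1 in control RD and 5.76 times in SKP2-depleted RD, and at 7.63 times in control JR1 and 25.0 times in SKP2-depleted JR1. The ratio was thus 1.81-fold higher on SKP2 depletion in RD and 3.27-fold higher in JR1. ZEB1 over ZEB2 was 1.02 in control RD, 0.572 in SKP2-depleted RD, 0.571 in control JR1 and 0.463 in SKP2-depleted JR1, the SKP2-depleted value being the lower in both lines. SNAI2 over MYOD1, the repressor set against the activator with which it shares sites, went from 0.338 to 0.413 in RD and from 0.359 to 0.459 in JR1. MYOD1 itself had 87.0 and 93.8 TPM in RD cells and 100.6 and 131 TPM in JR1, and was above SNAI2 in every library.

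As deposited, the summed level of the 7 transcripts was 67.7 TPM in control RD, 72.3 TPM in SKP2-depleted RD, 71.8 TPM in control JR1 and 93.5 TPM in SKP2-depleted JR1. Comparison of these sums between libraries depends on the scaling. Structural RNAs held 50.1% and 62.3% of the TPM in control and SKP2-depleted RD, and 57.1% and 64.9% in JR1. Shares within a library do not depend on it. SNAI2 made up 43.5% of the sum in control RD and 53.6% in SKP2-depleted RD, and 50.4% and 64.3% in JR1. The share of SNAI1 went from 13.6% to 9.31% in RD and from 6.60% to 2.58% in JR1, and that of the ZEB pair from 35.7% to 31.3% and from 32.3% to 26.7%. In order of level SNAI2 came first in every library and the ZEB pair followed, in RD with SNAI1 above SNAI3 and in JR1 with SNAI3 above SNAI1. With 1 library each, the spread of neighbours in this order is unknown.

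**Figure D2:**
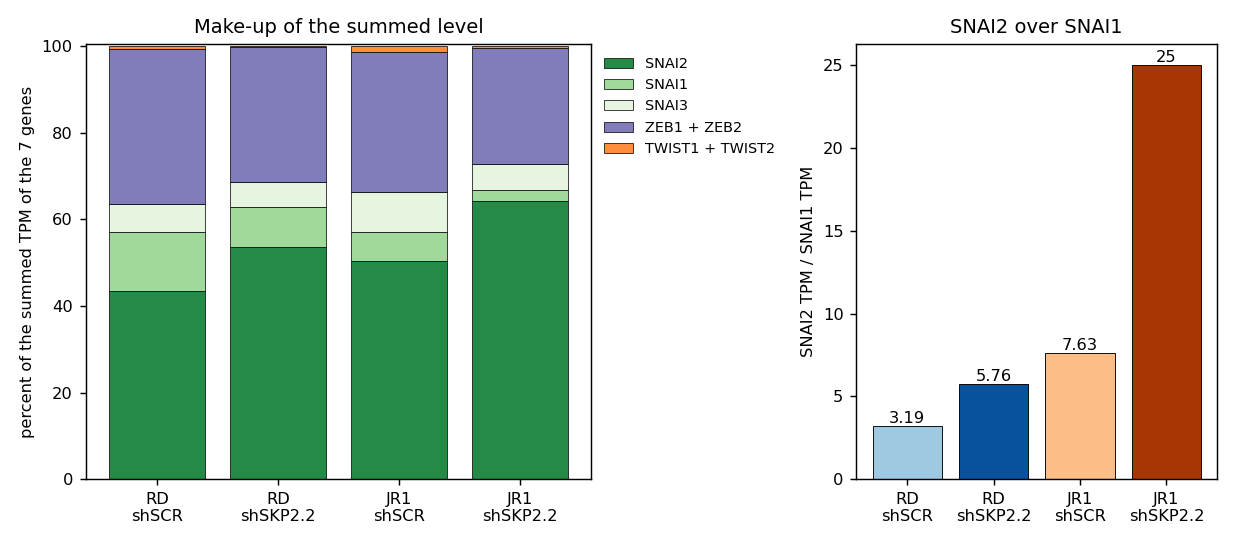
Left, percent of the summed TPM of the 7 genes (y axis) taken by SNAI2, SNAI1, SNAI3, the ZEB pair and the TWIST pair in each of the 4 libraries (x axis). Right, SNAI2 TPM divided by SNAI1 TPM (y axis, from 0) in the same libraries, each bar 1 library, with 3.19 and 5.76 for control and SKP2-depleted RD and 7.63 and 25.0 for JR1.

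Over the 5 tested members, 0 passed the limit of 1 in either direction in RD or in JR1. Among all 12985 tested genes, 1.08% were higher and 7.37% lower by at least 1 in RD, and 1.78% and 9.05% in JR1. In both lines at once, 0.539% were higher and 4.79% lower. The median change of the 5 members was -0.06 (RD) and -0.08 (JR1), beside -0.27 and -0.21 for all tested genes, and 2 of them (SNAI2 and ZEB2) were above 0 and 3 (SNAI1, SNAI3 and ZEB1) below 0 in both lines. Once centred SNAI2 and ZEB2 were still above 0 in both lines and SNAI1 below 0 in both. The members differed more among themselves than their median would show, from -0.52 to 0.39 in RD and from -0.75 to 0.72 in JR1.

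**Figure D3:**
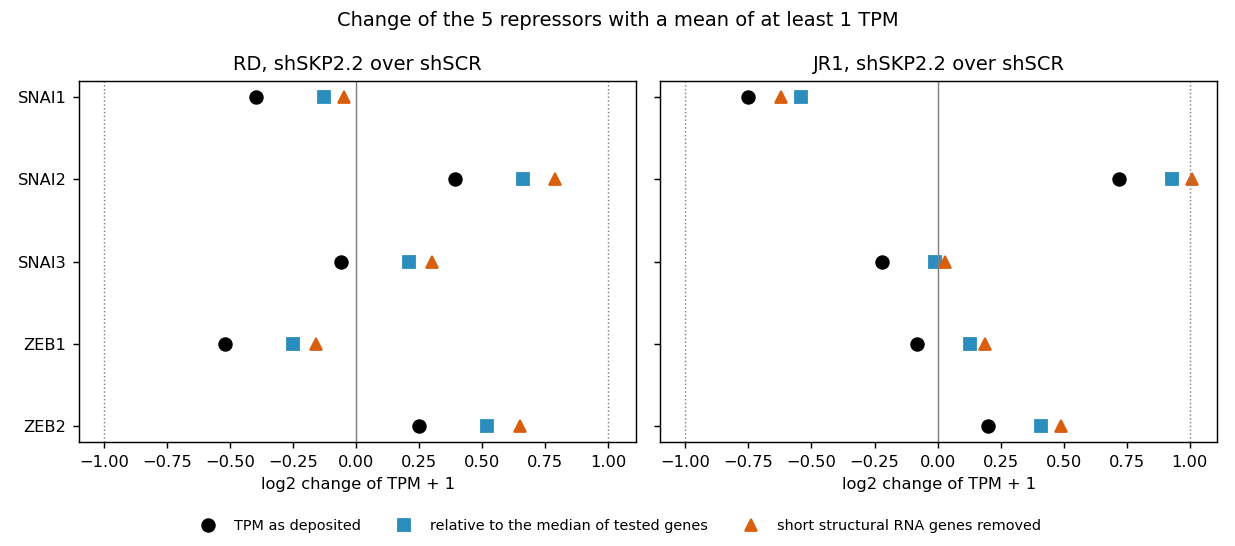
Log2 change of TPM + 1 (x axis) for the 5 tested members in RD (left) and JR1 (right), each point from 1 library per condition, with TPM as deposited, once centred and with short structural RNA genes removed; dotted lines mark the limit of 1. SNAI2 and ZEB2 lie right of 0 and SNAI1 left of 0 under all 3 scalings in both lines, and SNAI3 changes side in both lines.

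As deposited, the change in JR1 minus that in RD was 0.33 for SNAI2, 0.44 for ZEB1, -0.05 for ZEB2, -0.16 for SNAI3 and -0.35 for SNAI1. These differences were not tested, as there is no replicate. Between the control cells of the lines, 0 of the 5 members differed by at least 1, where 6.5% of tested genes were higher and 3.45% lower in RD. The log2 ratio of RD over JR1 in control cells was 0.83 for SNAI1, 0.49 for ZEB1, -0.29 for SNAI2, -0.29 for ZEB2 and -0.52 for SNAI3. All tested genes had a median of 0.23 there. Once centred on it the members had, in the same order, 0.60, 0.26, -0.52, -0.52 and -0.75. In SKP2-depleted cells SNAI1 was past the limit, at 1.18, where 5.39% of tested genes were higher and 2.7% lower in RD. The ratio of SNAI2 was then -0.62, that of SNAI3 -0.36, that of ZEB2 -0.23 and that of ZEB1 0.05. Once centred on the median of 0.17, SNAI1 had 1.01, SNAI2 -0.79, SNAI3 -0.53, ZEB2 -0.41 and ZEB1 -0.12. The direction of ZEB1 between these cells therefore depended on the scaling. These comparisons use the same 4 libraries as the changes on SKP2 depletion and are not independent of them.

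By the distance between mean-centred log2 levels over the 4 libraries, the profiles nearest to that of SNAI2 were those of LOC100132249 (0.025), SLC25A4 (0.032) and SLC17A7 (0.048). SLC25A4, the muscle form of the mitochondrial ADP/ATP carrier, had 7.65, 10.3, 9.32 and 16.1 TPM in control RD, SKP2-depleted RD, control JR1 and SKP2-depleted JR1. Nearest to SNAI1 were RIBC2 (0.066), ERCC6L (0.070), a DNA translocase of mitosis, and RNPEP (0.071). A profile over 4 libraries is short, and these are given as a description.

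The genes on which these repressors are known to act were examined in lists drawn up from general knowledge. Of 30 epithelial genes, 21 were below 1 TPM in every library, including CDH1 with at most 0.030 TPM, EPCAM with at most 0.160 TPM, and the splicing regulators ESRP1 and ESRP2 with at most 0.110 and 0.150 TPM. Others were expressed in every library, such as KRT18 at 80.8 to 202 TPM and JUP at 24.4 to 68.0 TPM. 7 of the 30 were tested, with a median change of -0.32 (RD) and -0.26 (JR1), close to the medians of all genes. Of these 7, CLDN4, a claudin of tight junctions, fell in both lines, from 5.76 to 1.63 TPM (RD) and 4.12 to 1.01 TPM (JR1), log2 changes of -1.36 and -1.35. The keratin KRT8 went from 7.67 to 9.06 TPM (RD) and 3.04 to 6.58 TPM (JR1), changes of 0.21 and 0.91. None of the 7 was higher by at least 1 as deposited, and KRT8 passed it in JR1 once centred, at 1.12.

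The E-box form bound by SNAI and ZEB proteins was common in the promoters of this epithelial list. It was found in 13 of 20 windows (65.0%), against 20.6% of all windows, and in at least 1 window of 11 of the 15 genes with an entry, against 24.1% of all 27305 genes. Because the list was written from knowledge of genes that such repressors act on, this share is not independent evidence. In the mesenchymal list 1 of 13 windows (7.69%) held the box, and in the muscle list below 8 of 27 (29.6%). Counted by gene, 8 of the 16 muscle genes with an entry had the box, a share above the 24.1% of all genes. Of the 11 mesenchymal genes with an entry, 1 had it. A share by gene above that of all genes was thus also seen in the muscle list. Such a share depends on how many windows a gene has, which was not matched between lists. By window the muscle share was 29.6%, against 20.6% of all windows and 65.0% of the epithelial ones. CAGCTG was found in 15.0% of the epithelial, 15.4% of the mesenchymal and 29.6% of the muscle windows. Stretches around 1 box each are shown from genes at or near 0 TPM (CLDN7, CRB3 and RAB25) and from muscle genes of these cells (TTN and CHRNA1), with the box in capitals.
CLDN7, chr17:7262599-7262622, minus strand: cttccggttCAGGTGagtgtccct
CRB3, chr19:6464115-6464138, plus strand: gtcccgttaCAGGTGcgcccacag
RAB25, chr1:156061110-156061133, plus strand: ctctccaccCACCTGggccccagg
TTN, chr2:178807548-178807571, minus strand: tcagaagaaCAGGTGgtatgtgac
CHRNA1, chr2:174764514-174764537, minus strand: tcccacaaaCAGGTGgtgtaaaac
CLDN7 had at most 0.150 TPM, CRB3 at most 0.270 TPM and RAB25 at most 0.090 TPM in any library. TTN, the giant sarcomere spring, had 0.880 TPM in control RD, 10.4 TPM in SKP2-depleted RD, 2.59 TPM in control JR1 and 17.1 TPM in SKP2-depleted JR1, and CHRNA1, a subunit of the muscle acetylcholine receptor, had 196, 314, 284 and 425 TPM. The genes shown were chosen after their levels were seen, so the contrast in level between them is not a result. JUP, an epithelial gene expressed in every library, held the box as well.

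Mesenchymal genes, which mark the state that these factors maintain in other tissues, were mostly lower on SKP2 depletion. Of 24 such genes 19 were tested, and 16 of them were below 0 in both lines. Falls of at least 1 numbered 9 (RD) and 8 (JR1), with 7 shared, and rises 0. The median change was -0.61 (RD) and -0.83 (JR1), -0.34 and -0.61 once centred, and -0.21 and -0.54 after the removal. Once centred 14 genes, and after the removal 12, were below 0 in both lines. On each of those scales 5 genes still fell by at least 1 in both lines. TGFBI, a matrix protein induced by TGF-beta, went from 41.6 to 8.53 TPM (RD) and 47.9 to 8.41 TPM (JR1). COL1A1 went from 307 to 77.0 TPM (RD) and 387 to 65.8 TPM (JR1). THY1, a surface glycoprotein of fibroblasts, went from 34.0 to 11.4 TPM (RD) and 66.5 to 12.5 TPM (JR1). VIM, the intermediate filament of mesenchymal cells, had 810 and 572 TPM in RD cells and 897 and 588 TPM in JR1. FN1 went from 257 to 168 TPM (RD) and 131 to 51.4 TPM (JR1), and CDH2 (N-cadherin) from 48.9 to 43.1 TPM and from 108.8 to 76.0 TPM. In RD the CDH2 change of -0.18 became 0.09 once centred and 0.22 after the removal. COL3A1 was higher in RD, from 1069 to 1383 TPM, and lower in JR1, from 904 to 509 TPM. SNAI2 and ZEB2 were thus higher in the libraries in which most of these genes were lower.

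Genes that MYOD drives in differentiating muscle were mostly higher. Of 26 such genes 25 were tested, 16 of which were above 0 in both lines, and their median change was 0.58 (RD) and 0.62 (JR1). By at least 1, 5 rose in RD and 8 in JR1, 4 of them in both, namely MYL1, TTN, MYH8 and MYLPF. MYL1, an embryonic and fast myosin light chain, had 7.10 TPM in control RD, 119 TPM in SKP2-depleted RD, 34.4 TPM in control JR1 and 374 TPM in SKP2-depleted JR1. The number that rose in both lines depended on the scaling and was 8 once centred and 9 after the removal. MYLPF, a fast myosin light chain, went from 15.6 to 44.02 TPM (RD) and 88.7 to 355 TPM (JR1), and MYH8, the perinatal myosin, from 0.660 to 3.56 TPM and from 0.380 to 6.13 TPM. MYOG had 31.6 and 58.4 TPM in RD cells and 54.0 and 107 TPM in JR1. Below 0 in both lines were 4 of the tested genes as deposited, 4 once centred and 3 after the removal. Among them was MYMX, a small membrane protein of myoblast fusion. It went from 3.26 to 1.62 TPM (RD) and 12.2 to 3.92 TPM (JR1). The rise of genes of this kind was known when the list was drawn up.

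Of 12 other transcription factors linked to EMT, 7 were tested, with 2 falls in each line and 0 rises. These falls were those of PRRX2, a homeobox factor of mesenchyme, from 12.8 to 1.93 TPM (RD) and 2.83 to 0.210 TPM (JR1), and of SOX9, from 7.74 to 1.69 TPM and from 10.1 to 2.87 TPM. Each of these falls was past the limit under all 3 scalings. ZNF281 went from 21.3 to 26.0 TPM (RD) and 14.0 to 19.8 TPM (JR1). The list median was -0.40 (RD) and -0.20 (JR1).

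Partners of the TWIST proteins include the E proteins, the HAND factors and the ID inhibitors. TCF3, the E protein of highest level here, had 64.1, 59.0, 44.2 and 44.02 TPM in control RD, SKP2-depleted RD, control JR1 and SKP2-depleted JR1. Of 9 genes 7 were tested, 1 fell in RD and 2 fell in JR1, and the list median was -0.41 and -0.18. ID3, which sequesters E proteins from DNA, fell in both lines as deposited, from 343 to 150 TPM (RD) and 248 to 50.1 TPM (JR1). Its change was then -1.19 in RD and -2.28 in JR1, and in RD it was short of the limit once centred, at -0.92, and after the removal, at -0.79.

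Corepressors through which these factors act were present in all libraries. All 22 genes of the list were tested. Their median change was -0.31 (RD) and -0.22 (JR1), close to the -0.27 and -0.21 of all tested genes. As deposited there were 4 falls in RD, 2 in JR1 and 0 rises. Once centred the falls numbered 0 in RD and 1 in JR1, and after the removal 1 in each line. HDAC1 had 93.6, 91.2, 106 and 117 TPM in control RD, SKP2-depleted RD, control JR1 and SKP2-depleted JR1, and CTBP1, the partner of ZEB proteins, 94.0, 76.8, 57.9 and 53.7 TPM. LOXL2, an oxidase reported to bind Snail, went from 76.1 to 31.2 TPM (RD) and 100.6 to 35.1 TPM (JR1), and the histone-binding subunit RBBP7 from 47.3 to 19.1 TPM and from 22.9 to 10.8 TPM. These 2 falls were shared by the lines with TPM as deposited, and 0 were shared once centred or after the removal, although the values stayed near the limit. LOXL2 had -0.99 (RD) and -1.28 (JR1) once centred, and RBBP7 had -0.80 in JR1. After the removal LOXL2 had -0.87 (RD) and -1.22 (JR1), and RBBP7 -0.89 (RD) and -0.78 (JR1). SMARCA4 went from 84.3 to 88.1 TPM (RD) and 53.7 to 65.2 TPM (JR1).

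Inputs from TGF-beta, a main inducer of SNAI and ZEB genes, were mostly lower. All 14 genes were tested, and 10 were below 0 and 3 above 0 in both lines as deposited. The list median was -0.53 (RD) and -0.53 (JR1), beside -0.27 and -0.21 for all tested genes. Once centred it was -0.26 and -0.31, and after the removal -0.16 and -0.35. On each of those scales 10 genes were below 0 and 4 above 0 in both lines. The share of all tested genes below 0 in both lines was not taken. SKIL, a feedback inhibitor of SMAD proteins, fell from 16.5 to 5.34 TPM (RD) and 14.6 to 3.36 TPM (JR1), and was past the limit in both lines under all 3 scalings. TGFBR1, the type I receptor, fell from 49.5 to 21.97 TPM and from 64.6 to 19.2 TPM, and in RD its change was -0.87 once centred, short of the limit. The ligand TGFB3 went from 8.52 to 12.8 TPM (RD) and 20.6 to 29.4 TPM (JR1).

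Genes that set the stability of SNAI, ZEB and TWIST proteins had medians close to 0 as deposited. Of 18 such genes 16 were tested, with 1 fall in each line and 0 rises, and the list median was -0.16 (RD) and -0.04 (JR1). Once centred this median was 0.11 and 0.18, and after the removal 0.23 and 0.25. Above 0 in both lines were 3 genes as deposited, 10 once centred and 12 after the removal. The fall was that of PSMD14, a deubiquitinase of the proteasome lid, from 90.0 to 35.4 TPM (RD) and 74.3 to 26.8 TPM (JR1). FBXL14, an F-box protein that targets SNAI1, SNAI2 and TWIST1, had 16.6, 14.2, 14.0 and 12.1 TPM in control RD, SKP2-depleted RD, control JR1 and SKP2-depleted JR1. After the removal PSMD14 was no longer past the limit in RD. GSK3B, the kinase that marks Snail for degradation, had 15.1, 17.9, 14.0 and 19.1 TPM.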

How the data were processed

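RNA-seq of 4 cell populations was analysed, each line with either hairpin. The authors made poly-A selected directional libraries, read pairs of 150 bases and mapped them to GRCh38. The submitters' processing notes name STAR 2.7.9a for alignment and RSEM 1.3.2 for quantification. The deposited TPM, 1 value per gene, have 2 decimals, and the annotation release is not given in the sources used here. Changes were log2 ratios of TPM + 1, with no test, for genes averaging at least 1 TPM. Libraries were grouped by their labels. ChIP-seq and other assays were not analysed here. The 7 members and the gene lists were chosen with earlier results of these data known. Beside the members, SKP2 and MYOD1, the genes named from a list were the tested ones past 1 in both lines and the largest shared rise and fall, at most 4 a direction, with CDH1, VIM, CDH2, FN1 and MYOG. A gene that this rule names is not reported here. EPCAM, ESRP1, ESRP2, CLDN7, CRB3, RAB25, CHRNA1, HDAC1, CTBP1, TCF3, FBXL14 and the markers were named for their role after their values were seen. KRT18, JUP and COL3A1 were named for their values. The 3 nearest profiles were taken by Euclidean distance for members with a range of at least 1. 1 list symbol, SNAI1P1, had no entry. The alternatives were a pseudocount of 0.1 TPM, centring, removal of 656 short structural RNA genes by symbol with rescaling, no filter, a minimum mean of 5 TPM and a limit of 1.5-fold. The code that makes the calls was run on simulated libraries without noise, with planted changes larger than the limit. Such a run checks the code and does not measure the error of a single library. Python 3.11.15, numpy 2.4.6, pandas 2.3.3 and matplotlib 3.10.9 were used.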

Additional observations from a re-analysis of the deposited data

How the results depend on the processing

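With 1 library per line and condition, no result has a replicate error, no replicate could be left out and the depth is unknown. Each change was taken within its line, and no replicates could be paired. A fit blocked by line, which would treat the lines as replicates and leave 1 residual degree of freedom, was not run. The log2 change of SKP2, -3.48 in RD and -3.67 in JR1, became -3.63 and -4.05 with a pseudocount of 0.1 TPM, -3.21 and -3.46 after centring on the median, and -3.18 and -3.64 with short structural RNA genes removed. The removal placed 1 member (SNAI2) past the limit in JR1, and 2 (SNAI1 and TWIST2, which then had a mean above 1 TPM) between the lines with shSKP2.2, where 1 had been past it. A limit of 1.5-fold gave 2 members in JR1 (SNAI1 and SNAI2), 1 between the control cells (SNAI1) and 2 between the shSKP2.2 cells (SNAI1 and SNAI2). Members past the limit in RD numbered 0 under each alternative. The share of all tested genes was not taken under these alternatives, so the counts are not read as a result about the members. Over all genes of the pathway lists, 4 rose and 16 fell in both lines as deposited, 8 and 10 after centring, 9 and 9 after the removal and 11 and 31 with a limit of 1.5-fold. No member past the limit changed direction.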
